A study of Mus musculus with 16 samples.

Results

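RNA of 46 genes of DNA replication and mitosis was compared between Tim-4+ and Tim-4- tumor-associated macrophages (TAMs) of the mouse peritoneal cavity. The genes are 23 genes that serve S phase, from *Mcm2* to *Ccne2*, and 23 genes that serve G2 phase and mitosis, from *Ccna2* to *Tacc3*. They are standard cell cycle genes that were listed by name, and they were taken out of the 55604 genes counted in each library. The list was chosen with earlier results of these data known. Its counts and medians beside those of all genes are therefore a description and not an independent test. All 46 had enough counts to be tested.

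The TAMs came from C57BL/6 mice that carried ID8, a mouse ovarian cancer line growing in the peritoneum, and were collected 6 to 7 weeks into tumor growth. The mice of the study were female and 6 to 8 weeks old. After most tumor cells and dead cells had been removed on a Ficoll gradient, Tim-4+ TAMs were taken with an antibody to Tim-4 and magnetic beads, and Tim-4- TAMs were then enriched from the remaining cells with beads to F4/80, a macrophage surface protein. Both groups thus come from tumor-bearing mice, and no tumor-free group was measured here. There were 4 libraries of each subset, in pairs numbered 793, 784, 783 and 779, and the labels do not say whether a number stands for 1 mouse or for a pool. The fit holds the pair fixed, so the p-values measure how far the difference between subsets varies over these pairs of libraries. They do not measure a spread over a known number of mice.

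A dividing cell copies its DNA in S phase and separates the copies in mitosis. The MCM helicase is loaded onto DNA, opened by its partners and followed by polymerases and by the sliding clamp PCNA, and many genes of this machinery are switched on by E2F transcription factors. Later, cyclin B with the kinase CDK1 drives entry into mitosis, the checkpoint proteins watch the attachment of chromosomes to the spindle, and the genes of this step are switched on late, through promoter elements bound by other complexes. Resident macrophages of the peritoneum are known to renew themselves by division, so both programs can be active in such cells.

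The total counts on genes ranged from 53527928 to 57768202 in Tim-4+ TAMs and from 55618306 to 69594245 in Tim-4- TAMs. *Timd4*, the gene of the sorted protein, was at 524.0 to 1742.8 CPM (counts scaled to library size, with edgeR's TMM factors) in Tim-4+ and at 1.96 to 84.9 CPM in Tim-4- libraries, so each library matched its label. The 9 macrophage markers summed to 44755.7 to 57287.6 CPM in Tim-4+ and to 21525.0 to 34458.1 CPM in Tim-4- libraries, and most of that sum is *Lyz2*, the gene of a lysozyme (39771.3 CPM on average in Tim-4+ and 21166.1 CPM in Tim-4- TAMs). Of the 9, 6 were higher in Tim-4+ TAMs, *Mrc1* was lower (log2 ratio -1.09, adjusted p = 0.0115), and *Csf1r* and *Fcgr1* were not called. The 13 mesothelial and epithelial markers summed to 116 to 417 CPM in Tim-4+ and to 470 to 2218.6 CPM in Tim-4- libraries, with *Cldn3* and *Cldn4* at or near 0 in all of them. All 11 of these markers that could be tested were lower in Tim-4+ TAMs. The 10 T and NK cell markers summed to at most 5.24 CPM in any library. The 8 granulocyte and mast cell markers summed to 2.74 to 4.24 CPM in Tim-4+ and to 2.85 to 13.6 CPM in Tim-4- libraries. The 7 B cell markers summed to 25.0 to 49.4 CPM in Tim-4+ and to 54.1 to 89.8 CPM in Tim-4- libraries. The ratio of Tim-4- to Tim-4+ was 1.34 to 2.41 over the pairs. *Ighm*, *Jchain* and *Cd79b* were called lower in Tim-4+ TAMs. The other 4 were not called, and 2 of the 7 had a log2 ratio above 0 (at most 0.2). The 6 fibroblast markers summed to 19.5 to 90.3 CPM in Tim-4+ and to 49.9 to 173 CPM in Tim-4- libraries. Their sum was higher in Tim-4- TAMs in every pair but 783. *Dcn* was called lower in Tim-4+ TAMs (-1.81). Of the 5 that could be tested, the other 4 were not called, and 1 had a log2 ratio above 0 (0.56). The 7 dendritic cell markers summed to 13.5 to 29.4 CPM in Tim-4+ and to 10.3 to 17.7 CPM in Tim-4- libraries. Of the 6 that could be tested, 5 had a log2 ratio above 0 and 1 below, from -0.89 to 2.02. In Tim-4+ TAMs 1 was called higher and 1 lower.

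The promoters of the genes were searched for short words known from replication genes or from mitosis genes, and 5 promoter stretches are shown because they carry such words. A window of 300 bases around the start of transcription was at hand in RefSeq (GRCm38.p6) for 20 of the 23 S phase genes and 18 of the 23 G2/M genes. *Mcm4*, *Gins2*, *Ccne2*, *Ccna2*, *Cdc25c*, *Aurkb*, *Kif20a* and *Tpx2* had no window. The stretches lie at chr1:128359736-128359815 (*Mcm6*, minus strand, -110 to -31 from the start), chr8:75109349-75109428 (*Mcm5*, plus strand, -160 to -81), chr10:69352939-69353002 (*Cdk1*, minus strand, -90 to -27), chr11:99024190-99024299 (*Top2a*, minus strand, -110 to -1) and chr4:118437354-118437403 (*Cdc20*, minus strand, -60 to -11). All lie upstream of the annotated gene. Each is written 5′ to 3′ along the gene, with the bases of a searched word in capitals.
Mcm6: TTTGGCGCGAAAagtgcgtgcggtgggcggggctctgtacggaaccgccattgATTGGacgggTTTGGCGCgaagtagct
Mcm5: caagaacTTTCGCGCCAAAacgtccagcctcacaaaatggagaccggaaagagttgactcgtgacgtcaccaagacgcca
Cdk1: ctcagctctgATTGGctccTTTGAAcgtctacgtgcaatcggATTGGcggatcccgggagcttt
Top2a: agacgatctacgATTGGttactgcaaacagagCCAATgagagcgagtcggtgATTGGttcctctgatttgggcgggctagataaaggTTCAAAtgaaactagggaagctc
Cdc20: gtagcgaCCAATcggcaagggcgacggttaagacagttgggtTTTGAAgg

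The words searched on both strands were TTTGAA (the cell cycle genes homology region, CHR), TTTCGCGC and TTTGGCGC (forms of the E2F site) and CCAAT (the CCAAT box). The CHR word was in the window of 12 of the 18 G2/M genes (66.7%) and of 3 of the 20 S phase genes (15.0%), against 17.9% of all 32851 windows. An E2F word was in 7 of the 20 S phase genes (*Cdt1*, *Mcm3*, *Mcm5*, *Mcm6*, *Mcm7*, *Pola1* and *Uhrf1*) and in 1 of the 18 G2/M genes, *Cdk1*, against 0.813% of all windows. In *Mcm6* and *Mcm5* the 2 E2F words overlap, on opposite strands, in the run of 12 capitals. CCAAT was in 15 of the 18 G2/M genes and in 13 of the 20 S phase genes, against 37.4% of all windows. A gene was counted if any of its windows held the word, while the shares over all are per window. The 20 S phase genes had 23 windows, of which 3 held the CHR word, 7 an E2F word and 15 CCAAT. A match describes these letters only, and no binding was measured. The plot of word positions shows where the words lie.

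**Figure D1:**
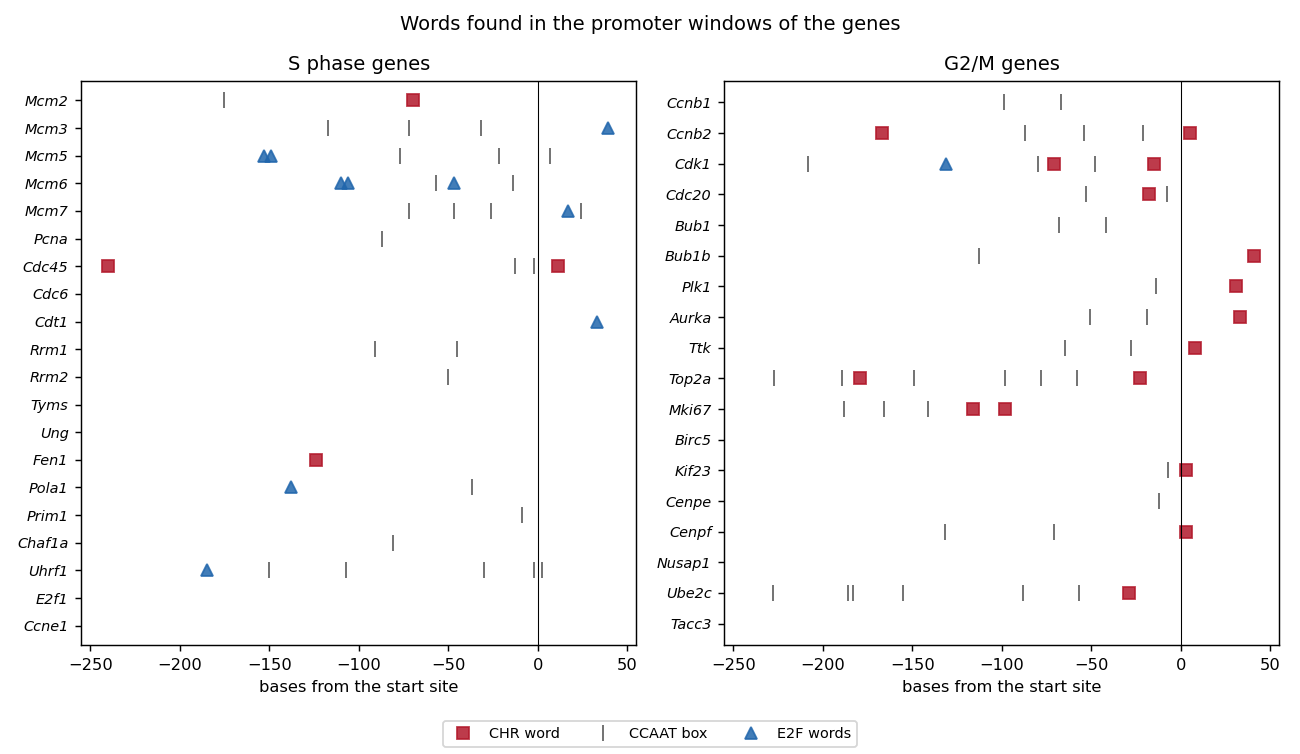
Position of the searched words in the promoter windows, with bases from the start site on the x axis and 1 gene per row (left, 20 S phase genes; right, 18 G2/M genes; genes with several windows show the words of each). Squares are the CHR word, bars the CCAAT box and triangles the E2F words, each at its first base; the CHR word is in 12 of 18 G2/M genes and in 3 of 20 S phase genes.

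Every one of the 46 genes had a lower fitted level in Tim-4+ TAMs, and S phase genes stood further below 0 than G2/M genes. Of the 23 S phase genes, 14 passed an adjusted p of 0.05 with a lower level in Tim-4+ TAMs and 0 with a higher one (edgeR's quasi-likelihood test on the pairs, Benjamini-Hochberg adjusted over all genes). Of the 23 G2/M genes, 7 were lower and 0 were higher. The share over all 16861 genes tested was 8.43% lower and 8.97% higher. At an unadjusted p under 0.05, 20 S phase genes and 15 G2/M genes were lower and 0 were higher, beside 16.9% lower and 16.8% higher over all genes. The median fitted log2 ratio of Tim-4+ over Tim-4- TAMs was -0.69 for the S phase genes and -0.48 for the G2/M genes, beside 0.00 for all genes tested, and 50.1% of all genes had a fold change below 0. The sizes ranged from -1.46 (*Ung*) to -0.31 (*E2f1*) in S phase genes and from -0.82 (*Aurkb* and *Cdc20*) to -0.13 (*Nusap1*) in G2/M genes. Whether the 2 phases differ from each other was not tested. In RNA from many cells, fewer dividing macrophages, less RNA per cell and a smaller share of other dividing cells cannot be told apart.

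In 20 of the 23 S phase genes and 14 of the 23 G2/M genes each pair had the lower value in Tim-4+ TAMs, against 20.2% of all genes. In 12 S phase genes and 10 G2/M genes every Tim-4+ library lay below every Tim-4- library, which held for 5.92% of all genes, and in none did every Tim-4+ library lie above (6.84% of all genes). The counts of calls, but not the direction of the medians, depended on single pairs. Without pair 784, no S phase gene and no G2/M gene was called, and over all genes 91 were higher and 67 lower. Without pair 779, 3 S phase genes and 1 G2/M gene were called. With the replicate number left out of the fit, 1 S phase gene (*Ung*) and 0 G2/M genes were called, and 0.504% of all genes were lower.

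**Figure D2:**
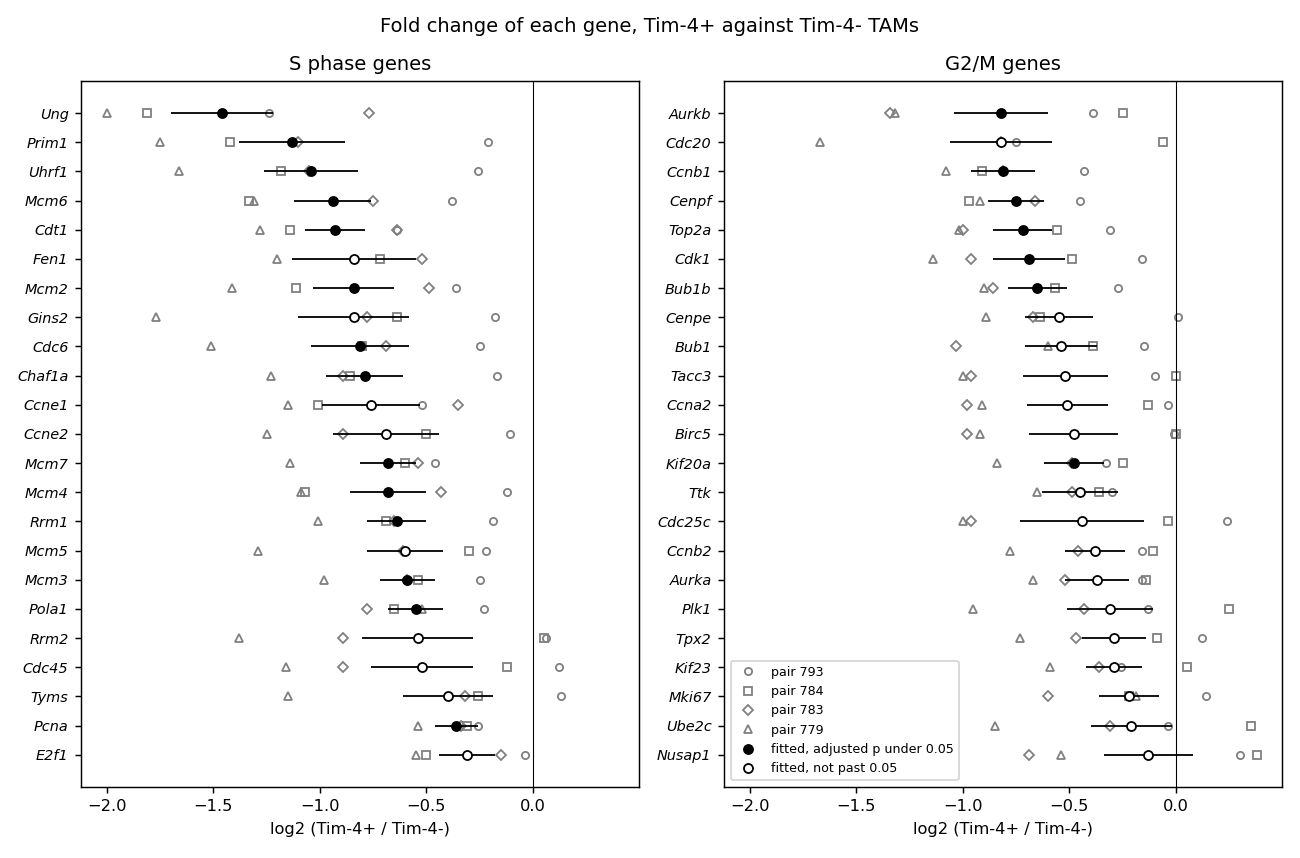
Log2 ratio of Tim-4+ over Tim-4- TAMs on the x axis for each of the 23 S phase genes (left) and 23 G2/M genes (right). Circles are fitted values with their standard error, filled where the adjusted p was under 0.05 (14 and 7 genes), and grey symbols are the ratios within each pair; all 46 fitted values lie below 0.

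The 6 subunits of the MCM helicase, which unwinds the template, had the lower level in the Tim-4+ library of each pair, and 5 were called. This group and those that follow hold 2 to 6 genes, so their counts describe single genes. Over all genes, 8.43% were called lower and 5.92% had every Tim-4+ library below every Tim-4- library. *Mcm6* (ENSMUSG00000026355.11, chr1:128331590-128359664) was at 96.5, 55.1, 75.8 and 71.1 CPM in Tim-4+ TAMs of pairs 793, 784, 783 and 779, and at 126, 139, 127 and 176 CPM in Tim-4- TAMs. The subsets did not overlap, with the smallest gap in pair 793. The fitted log2 ratio was -0.94 (standard error, SE, 0.18, adjusted p = 0.0152, edgeR's quasi-likelihood test, Benjamini-Hochberg adjusted), or 1.92-fold higher in Tim-4- TAMs. *Mcm2* was at 62.6, 39.1, 47.8 and 41.5 CPM in Tim-4+ and at 80.5, 84.2, 67.4 and 110 CPM in Tim-4- TAMs. Again no Tim-4+ library reached the lowest Tim-4- library. This gave a log2 ratio of -0.84 (SE 0.19, adjusted p = 0.0242). *Mcm3* (-0.59), *Mcm4* (-0.68) and *Mcm7* (-0.68) were called too. *Mcm5*, at -0.60, missed the threshold (SE 0.18, adjusted p = 0.0602). Of the called subunits, only *Mcm3* and *Mcm4* had a Tim-4+ library, that of pair 793, above the lowest Tim-4- library. Part of the exons of *Mcm7* (12.6% of its bases) is shared with other genes, *Ap4m1* and *Cops6* among them.

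The proteins that load and activate the helicase gave 2 calls among 4 genes. *Cdt1*, which brings the MCM ring to the origin, was at 33.6, 17.1, 23 and 25.4 CPM in Tim-4+ and at 52.3, 37.7, 36.0 and 61.8 CPM in Tim-4- TAMs. The highest Tim-4+ library, pair 793, lay just below the lowest Tim-4- library. For *Cdt1* the fitted log2 ratio was -0.93 (SE 0.14, adjusted p = 0.0091). *Cdc6*, the other loader, was lower by a log2 ratio of -0.81 (adjusted p = 0.0452), the called S phase gene nearest to the threshold. *Cdc45* (-0.52, adjusted p = 0.179) and *Gins2* (-0.84, adjusted p = 0.0615), which complete the active helicase, were not called. *Gins2* shares 67.3% of its exon bases with *Gse1*, so its counts are uncertain.

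Of the 4 genes of primer synthesis, the clamp and flap removal, 3 were called and none overlapped between the subsets. *Prim1*, the primase that lays down RNA primers, was at 9.39, 5.14, 6.87 and 6.51 CPM in Tim-4+ and at 10.9, 13.8, 14.7 and 21.9 CPM in Tim-4- TAMs. The gap was narrow in pair 793 and wide in pair 779. The fit gave a log2 ratio of -1.13 (SE 0.25, adjusted p = 0.0259). *Pola1*, the polymerase subunit that extends these primers, had a log2 ratio of -0.55 (adjusted p = 0.0281). *Pcna*, the sliding clamp, had the highest level per length of all 46 genes (38.7 CPM per kilobase of exon, mean of 8 libraries) and the smallest called difference. It was at 87.6, 75.5, 73.3 and 87.6 CPM in Tim-4+ and at 105, 93.7, 93.1 and 128 CPM in Tim-4- TAMs. Every Tim-4- library lay above the highest Tim-4+ libraries. The fitted log2 ratio of *Pcna* was -0.36 (SE 0.10, adjusted p = 0.0437). *Fen1*, the nuclease that trims Okazaki fragments, was not called (-0.84, adjusted p = 0.0808). It had the lowest level per length (0.64 CPM per kilobase), and 84.2% of its exon bases lie in *Tmem258* and *Gm10143*, so its counts are uncertain.

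The largest difference was in *Ung* (ENSMUSG00000029591.14, chr5:114130386-114139323), the glycosylase that removes uracil from DNA. Its level was 3.95, 2.96, 4.88 and 3.33 CPM in Tim-4+ and 9.39, 10.4, 8.37 and 13.4 CPM in Tim-4- TAMs. Each Tim-4+ library was well under the lowest Tim-4- library. *Ung* was 2.75-fold higher in Tim-4- TAMs (log2 ratio -1.46, SE 0.24, adjusted p = 0.0107), and it was the only one of the 46 genes called without the replicate number in the fit (adjusted p = 0.043). The 3 genes that supply deoxynucleotides gave 1 call. *Rrm1*, the large subunit of ribonucleotide reductase, was at 63.4, 55.3, 53.6 and 44.9 CPM in Tim-4+ and at 72.2, 89.5, 84.3 and 90.2 CPM in Tim-4- TAMs. Its subsets did not overlap, and its log2 ratio was -0.64 (SE 0.14, adjusted p = 0.0225). *Rrm2*, the small subunit of the same enzyme, was at 28.6, 26.9, 16.1 and 16.6 CPM in Tim-4+ and at 27.5, 26.0, 29.9 and 43.4 CPM in Tim-4- TAMs. In pairs 793 and 784 the Tim-4+ library was the higher one by a small margin, and in the other pairs it was far lower. Neither *Rrm2* (-0.54, adjusted p = 0.206) nor *Tyms*, the thymidylate synthase (-0.40, adjusted p = 0.226), was called.

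Both genes that restore chromatin on new DNA were called. *Uhrf1*, which recruits the maintenance DNA methyltransferase, was at 33.7, 17.8, 20.6 and 16.1 CPM in Tim-4+ and at 40.3, 40.2, 42.7 and 51.0 CPM in Tim-4- TAMs. The Tim-4- libraries were close to each other, and the Tim-4+ library of pair 793 stood above the other Tim-4+ libraries. For *Uhrf1* the fitted log2 ratio was -1.04 (SE 0.22, adjusted p = 0.0224). *Chaf1a*, a subunit of the histone chaperone CAF-1, had a log2 ratio of -0.79 (adjusted p = 0.0251), with 52.5% of its exon bases shared with *Ubxn6*.

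None of the 3 genes that govern entry into S phase was called. *E2f1*, the activating E2F factor, was at 35.2, 16.4, 32.9 and 33.8 CPM in Tim-4+ and at 36.3, 23.3, 36.5 and 49.5 CPM in Tim-4- TAMs. Both libraries of pair 784 were low, so the subsets overlapped although each pair had the lower value in Tim-4+ TAMs. Its log2 ratio of -0.31 was the smallest of the S phase genes (SE 0.13, adjusted p = 0.126). *Ccne1* (-0.76, adjusted p = 0.0584) and *Ccne2* (-0.69, adjusted p = 0.0926), the E cyclins that activate CDK2, were below 0 in all 4 pairs and were not called.

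Among the G2/M genes, the cyclin B and CDK1 module gave 2 calls out of 5 genes. *Ccnb1* (cyclin B1) was at 11.6, 11.7, 9.35 and 9.52 CPM in Tim-4+ and at 15.6, 22.0, 16.4 and 20.2 CPM in Tim-4- TAMs. No library of one subset reached the range of the other. Its log2 ratio was -0.81 (SE 0.15, adjusted p = 0.0140), or 1.75-fold higher in Tim-4- TAMs. *Cdk1* (ENSMUSG00000019942.13, chr10:69335146-69352938), its kinase partner, was at 28.5, 29.1, 17.4 and 20.0 CPM in Tim-4+ and at 31.8, 40.9, 33.9 and 44.3 CPM in Tim-4- TAMs. The subsets did not overlap, and the Tim-4+ libraries of pairs 793 and 784 lay close to the lowest Tim-4- library. The fitted log2 ratio of *Cdk1* was -0.69 (SE 0.17, adjusted p = 0.0344). *Ccna2* (cyclin A2, -0.51, adjusted p = 0.101), *Ccnb2* (cyclin B2, -0.38, adjusted p = 0.106) and *Cdc25c*, the phosphatase that activates CDK1 (-0.44, adjusted p = 0.337), were not called.

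The spindle checkpoint and the anaphase machinery gave 1 call out of 5 genes, beside 8.43% called lower over all genes. In 4 of the 5 the subsets did not overlap, with Tim-4+ TAMs lower, beside 5.92% of all genes. *Bub1b*, a checkpoint protein that restrains the anaphase ubiquitin ligase, was at 27.7, 20.3, 19.3 and 16.1 CPM in Tim-4+ and at 33.5, 30.0, 35.1 and 30.1 CPM in Tim-4- TAMs. All Tim-4- libraries lay above all Tim-4+ libraries. It had a fitted log2 ratio of -0.65 (SE 0.14, adjusted p = 0.0202). *Cdc20*, the activator of that ligase, was at 15.0, 23.9, 15.1 and 9.65 CPM in Tim-4+ and at 25.2, 25.0, 26.8 and 30.7 CPM in Tim-4- TAMs. In pair 784 both libraries were nearly equal, and in pair 779 they were farthest apart. At a log2 ratio of -0.82, as large as that of the called *Aurkb*, *Cdc20* missed the threshold (SE 0.24, adjusted p = 0.0605). The checkpoint kinases *Bub1* (-0.54, adjusted p = 0.0615) and *Ttk* (-0.45, adjusted p = 0.117) were not called either. *Ube2c*, the ubiquitin-conjugating enzyme of the same ligase, was at 23.4, 35.6, 18.0 and 17.4 CPM in Tim-4+ and at 24.0, 27.9, 22.3 and 31.4 CPM in Tim-4- TAMs. Its highest library was a Tim-4+ library, that of pair 784, and the log2 ratio was -0.21 (adjusted p = 0.490).

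Of the mitotic kinases and the passenger complex, only *Aurkb* was called out of 4 genes. *Aurkb*, the kinase that corrects faulty attachments, was at 25.9, 19.0, 11.4 and 14 CPM in Tim-4+ and at 34.0, 22.6, 28.9 and 34.8 CPM in Tim-4- TAMs. The Tim-4+ library of pair 793 lay above the Tim-4- library of pair 784, so the subsets overlapped, and the pair ratios kept 1 direction. The fitted log2 ratio was -0.82 (SE 0.22, adjusted p = 0.0417). *Birc5* (survivin, a partner of Aurora B, -0.48, adjusted p = 0.151) and *Aurka*, a kinase of the spindle poles (-0.37, adjusted p = 0.132), were not called. *Plk1*, which acts from mitotic entry to cytokinesis, was at 18.4, 26.2, 15.4 and 7.67 CPM in Tim-4+ and at 20.2, 22.1, 20.7 and 14.9 CPM in Tim-4- TAMs. Its libraries overlapped and pair 784 went the other way (log2 ratio -0.31, adjusted p = 0.311).

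Of the 2 genes of chromosome structure, 1 was called. *Top2a* (ENSMUSG00000020914.17, chr11:98992943-99024189), the topoisomerase that untangles sister chromatids, was at 94.1, 105, 61.1 and 71.1 CPM in Tim-4+ and at 117, 155, 122 and 144 CPM in Tim-4- TAMs. The subsets did not overlap. This gave a log2 ratio of -0.72 (SE 0.14, adjusted p = 0.0167). *Mki67*, the gene of the proliferation marker Ki-67, was at 204, 145, 97.6 and 124 CPM in Tim-4+ and at 186, 169, 148 and 142 CPM in Tim-4- TAMs. The highest library of all was the Tim-4+ library of pair 793, and the log2 ratio of -0.22 (SE 0.14) was not past the threshold (adjusted p = 0.298). A test of *Top2a* against *Mki67* was not made.

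Among kinetochore proteins and kinesins, 2 of 4 genes were called. *Cenpf*, a large kinetochore protein, was at 22.9, 20.2, 20.4 and 14.6 CPM in Tim-4+ and at 31.2, 39.5, 32.2 and 27.6 CPM in Tim-4- TAMs. The ranges were apart. The fit gave a log2 ratio of -0.75 (SE 0.13), with the lowest adjusted p of the G2/M genes (0.0119). *Kif20a*, a kinesin of the central spindle, was the called G2/M gene nearest to the threshold (-0.48, adjusted p = 0.0492), and 29.3% of its exon bases are shared with *Cdc23*. *Cenpe*, the kinesin that moves chromosomes to the spindle equator, was the closest gene on the other side (-0.55, adjusted p = 0.0518). *Kif23*, a kinesin of cytokinesis, was at -0.29 (adjusted p = 0.159). The 3 genes of spindle assembly gave no call. *Tacc3* (-0.52, adjusted p = 0.120) and *Tpx2* (-0.29, adjusted p = 0.226) are microtubule proteins of the spindle, and their 2 libraries were nearly equal in pair 784. *Nusap1*, a microtubule bundling protein, was at 24.9, 27.8, 13.6 and 14.8 CPM in Tim-4+ and at 20.2, 21.4, 21.9 and 21.5 CPM in Tim-4- TAMs. Its Tim-4- libraries were nearly alike, while Tim-4+ libraries lay on both sides of them (log2 ratio -0.13, adjusted p = 0.697).

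Summed over the 23 genes, S phase RNA was at 844, 562, 616 and 618 CPM in Tim-4+ TAMs of pairs 793, 784, 783 and 779, with a mean of 660 ± 125 CPM (SD, n = 4). In Tim-4- TAMs it was at 1016.2, 943, 934 and 1336.6 CPM, with a mean of 1057.4 ± 190 CPM (SD, n = 4). Each Tim-4- library lay above each Tim-4+ library. The ratio of Tim-4- to Tim-4+ was 1.20 in pair 793, 1.68 in pair 784, 1.52 in pair 783 and 2.16 in pair 779. Thus the pairs kept 1 direction, with pair 793 nearest to equality and pair 779 farthest from it.

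G2/M RNA summed to 758, 732, 476 and 484 CPM in Tim-4+ TAMs, with a mean of 612 ± 153 CPM (SD, n = 4). The sums of Tim-4- TAMs were 819, 876, 792 and 832 CPM, with a mean of 830.0 ± 35.0 CPM (SD, n = 4). The Tim-4- libraries were close together, while the Tim-4+ libraries fell apart into high values in pairs 793 and 784 and low values in pairs 783 and 779. The ratio of Tim-4- to Tim-4+ was 1.08 in pair 793, 1.20 in pair 784, 1.66 in pair 783 and 1.72 in pair 779. These sums depend on the scaling of libraries. With libraries scaled to total counts in place of TMM factors, the mean ratio over the pairs went from 1.64 to 2.14 for S phase and from 1.42 to 1.83 for G2/M, and the median log2 ratio of all genes went to -0.36.

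**Figure D3:**
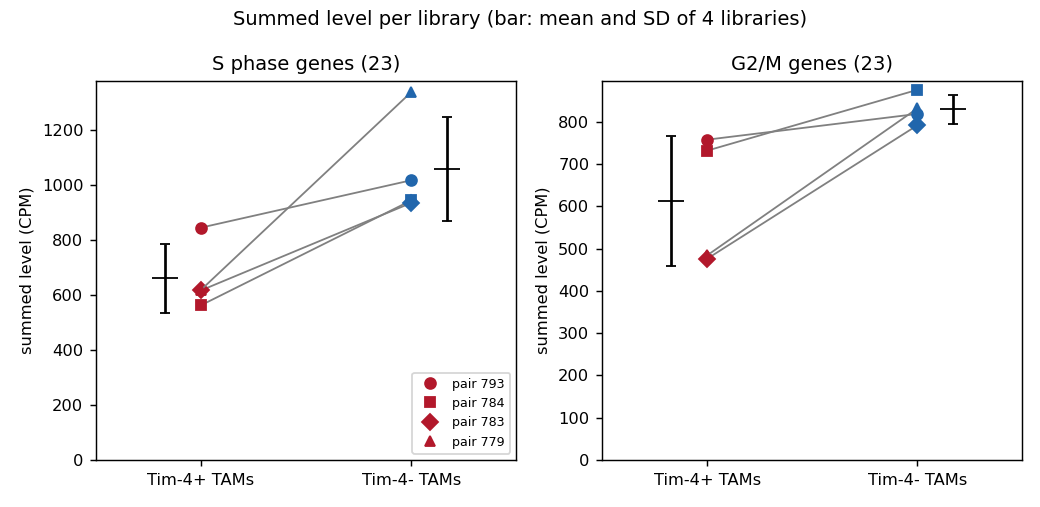
Summed CPM of the 23 S phase genes (left) and the 23 G2/M genes (right) in each library, with lines joining the libraries of a pair and bars for the mean and SD of 4 libraries. Every line rises from Tim-4+ to Tim-4- TAMs, from 1.20-fold to 2.16-fold for S phase and from 1.08-fold to 1.72-fold for G2/M.

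A measure that scaling cannot move is the ratio of S phase counts to G2/M counts within a library. It was 1.11, 0.77, 1.29 and 1.28 in the Tim-4+ libraries of pairs 793, 784, 783 and 779, against 1.24, 1.08, 1.18 and 1.61 in the Tim-4- libraries. The ratio was lower in Tim-4+ TAMs in 3 of 4 pairs, pair 783 being the exception, and the subsets overlapped. The libraries also ranked differently in the 2 phases. Among Tim-4+ libraries, that of pair 793 was the highest for 19 of the 23 S phase genes, but that of pair 784 was the highest for 16 and that of pair 793 for 7 of the 23 G2/M genes. For S phase genes the library of pair 784 was the lowest in 12 of 23. Among Tim-4- libraries, that of pair 779 was the highest for 22 of the 23 S phase genes, and the G2/M genes were highest in pairs 793, 784, 783 and 779 for 2, 10, 3 and 8 genes.

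The 46 genes were then set beside *Msln* and *Krt19*, a mesothelial surface protein gene and a keratin gene of epithelial and mesothelial cells. Which cells this RNA came from, ID8 tumor cells left after the gradient included, was not tested. *Msln* was at 5.44, 9.92, 25.8 and 17.7 CPM in Tim-4+ and at 27.6, 79.3, 86.4 and 223 CPM in Tim-4- TAMs. No Tim-4+ library reached the lowest Tim-4- library, and its log2 ratio was -2.69 (SE 0.32, adjusted p = 0.00791, edgeR's quasi-likelihood test, Benjamini-Hochberg adjusted). *Krt19* was at 21.8, 64.2, 120 and 54.5 CPM in Tim-4+ and at 93.3, 408, 252 and 478 CPM in Tim-4- TAMs. Its log2 ratio was -2.25 (SE 0.34, adjusted p = 0.0116), and the Tim-4+ library of pair 783 lay above the Tim-4- library of pair 793. Both markers were lower in Tim-4+ TAMs in every pair. Without the replicate number in the fit neither passed the threshold (adjusted p = 0.0590 for *Msln* and 0.0715 for *Krt19*).

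Over the 8 libraries, the mean log2 CPM of the S phase genes had a Pearson r of 0.71 and a Spearman rho of 0.79 with *Msln*, and of 0.60 and 0.64 with *Krt19*. The G2/M mean had an r of 0.42 and a rho of 0.74 with *Msln*, and of 0.46 and 0.79 with *Krt19*. The 8 points are 4 of each subset, and both measures differ between subsets, so these values describe that difference as well. With the subset means removed, r went to 0.09 (*Msln*) and -0.18 (*Krt19*) for S phase genes and to -0.46 and -0.28 for G2/M genes. These values join opposite signs. Within the 4 Tim-4+ libraries r was -0.67 (*Msln*) and -0.82 (*Krt19*) for S phase genes and -0.85 and -0.53 for G2/M genes. Within the 4 Tim-4- libraries it was 0.67 and 0.39 for S phase genes and 0.49 and 0.80 for G2/M genes, and 4 points describe those libraries only. Without the 2 libraries farthest from the median of the marker, the Tim-4+ library of pair 793 and the Tim-4- library of pair 779, the pooled r was 0.79 and 0.67 for S phase and 0.48 and 0.59 for G2/M. Single genes ranged from 0.39 (*Tyms*) to 0.87 (*Ung*) with *Msln* among S phase genes, and from -0.17 (*Mki67* and *Kif23*) to 0.75 (*Ccnb1*) among G2/M genes.

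The order of libraries within a subset was also compared between the genes and the markers. Among Tim-4+ TAMs, the library of pair 793 had the lowest *Msln* and *Krt19*, the highest S phase sum and the highest G2/M sum. That G2/M sum was close to the one of pair 784 (758 against 732 CPM), and *Mki67* alone was at 204 against 145 CPM. By mean log2 CPM, the measure used for r, the G2/M genes were highest in pair 784 (4.58, with 4.51 in pair 793). Among Tim-4- TAMs, the library of pair 779 had the highest *Msln* and *Krt19* and the highest S phase sum, while its G2/M sum was within the narrow range of the other 3. The part of the cells that carry these markers, or the B cell and fibroblast markers, in the lower S phase and G2/M levels of Tim-4+ TAMs was not tested.

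**Figure D4:**
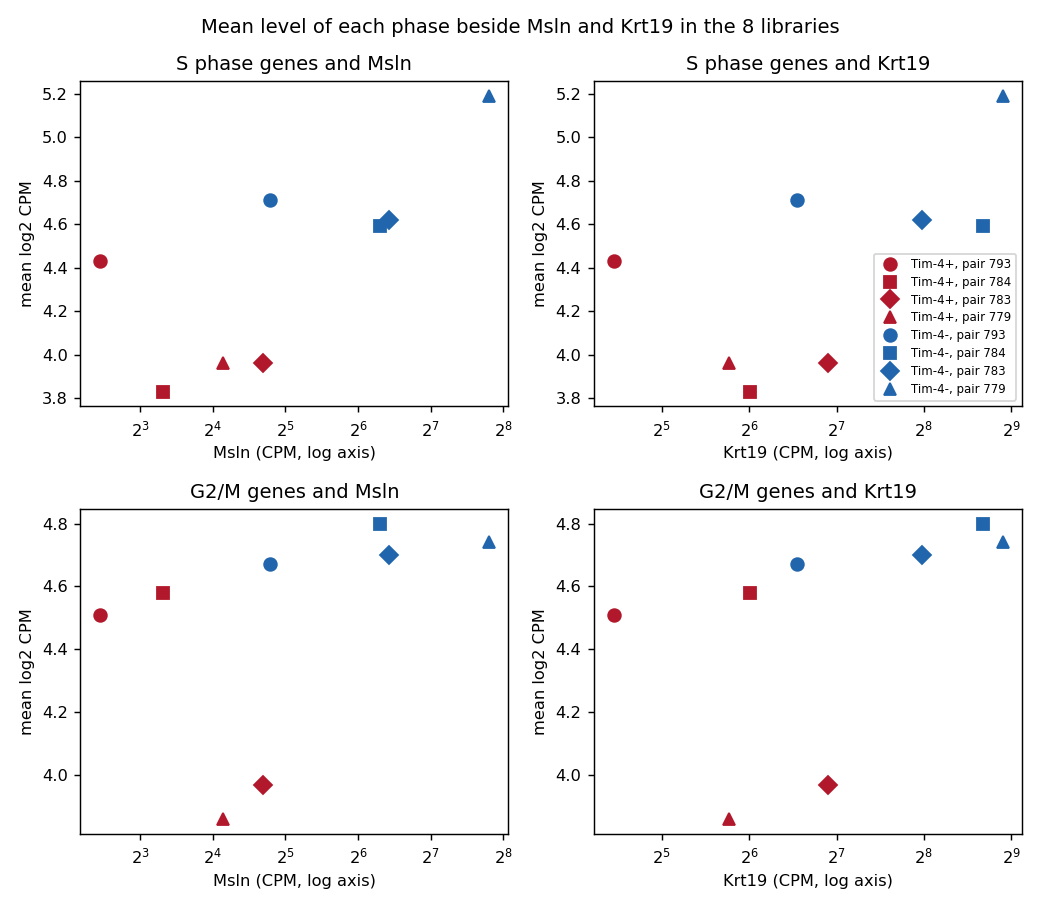
Mean log2 CPM of the S phase genes (top) and the G2/M genes (bottom) on the y axis against the CPM of *Msln* (left) and *Krt19* (right) on a log axis, 1 point per library (red, Tim-4+; blue, Tim-4-; shape, pair). The Tim-4+ library of pair 793 lies at the lowest marker level, and pooled r is 0.71, 0.60, 0.42 and 0.46 from top left to bottom right.

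Further genes of each program, listed from textbook knowledge, were read in the same fit. Of 49 further replication genes, 21 were lower in Tim-4+ TAMs and 0 were higher, beside 8.43% and 8.97% of all genes, and the median log2 ratio was -0.65. Called genes with large differences were *Orc1*, a subunit of the origin recognition complex (-1.28), *Dtl*, an adaptor that has *Cdt1* degraded (-1.08), *Mcm8*, an MCM paralogue of repair (-1.05), and *Gmnn*, the inhibitor of *Cdt1* (-1.0). *Mcm8* was at 2.39, 1.88, 3.07 and 1.52 CPM in Tim-4+ and at 3.84, 3.96, 5.15 and 5.0 CPM in Tim-4- TAMs (SE 0.26, adjusted p = 0.0314). Its subsets did not overlap.

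Of 56 further mitosis genes, 54 could be tested, 17 were lower and 0 were higher (8.43% and 8.97% of all genes), with a median of -0.51. *Kif11* and *Nek2* were at or near 0 counts in all libraries and were not tested. Why they had almost no counts was not examined, so this is not read as absence of their RNA. The largest called differences were in *Psrc1*, a spindle protein (-1.38), *Ncapg2*, a condensin subunit (-0.93), *Stmn1*, a microtubule destabilizer (-0.92), *Ncapg*, another condensin subunit (-0.91), and *Ect2*, the exchange factor of the cleavage furrow (-0.88). *Ncapg2* was at 19.6, 11.7, 18.3 and 15.6 CPM in Tim-4+ and at 28.5, 28.8, 35.9 and 29.3 CPM in Tim-4- TAMs (SE 0.14, adjusted p = 0.00925). Every Tim-4- library lay well above the Tim-4+ libraries. Without pair 784 neither list had a called gene. Without pair 779 the replication list had 0 and the mitosis list 1, without pair 793 they had 11 and 7, and without pair 783 the mitosis list had 11. Without the replicate number in the fit there were 0 in both. Both lists were written with earlier results of these libraries known, so they are no independent support for the direction of the 46 genes.

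Of 28 genes that control the cycle, 5 were higher in Tim-4+ TAMs and 2 were lower, beside 8.97% and 8.43% of all genes, and the median log2 ratio was 0.01. With total count scaling there were 3 higher and 12 lower. The list holds 7 inhibitors of cyclin-dependent kinases, and 4 of them are among the 5 higher genes. *Cdkn2a*, the locus of p16 and p19Arf, was at 9.05, 7.84, 5.23 and 8.15 CPM in Tim-4+ and at 2.68, 1.01, 1.46 and 1.09 CPM in Tim-4- TAMs. The lowest Tim-4+ library was above the highest Tim-4- library. It had a fitted log2 ratio of 2.35 (SE 0.29, adjusted p = 0.00637), and it was also called without the replicate number in the fit (adjusted p = 0.0394). *Cdkn2b*, its neighbor that encodes p15, was at 9.81, 6.54, 4.33 and 11.5 CPM in Tim-4+ and at 3.49, 1.30, 1.15 and 1.49 CPM in Tim-4- TAMs. The Tim-4- library of pair 793 stood above the other Tim-4- libraries and below all Tim-4+ libraries (log2 ratio 2.16, SE 0.28, adjusted p = 0.00654).

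*Cdkn1a*, which encodes p21, was at 441, 437, 294 and 508 CPM in Tim-4+ and at 303, 218, 156 and 197 CPM in Tim-4- TAMs. It was higher in Tim-4+ TAMs in every pair, with an overlap between the Tim-4+ library of pair 783 and the Tim-4- library of pair 793. The fitted log2 ratio was 0.96 (SE 0.15, adjusted p = 0.00964). *Cdkn1c* (p57) was low throughout, at 0.78 to 1.87 CPM in Tim-4+ and at 0.301 to 0.704 CPM in Tim-4- TAMs (log2 ratio 1.31, adjusted p = 0.0391). The other 3 inhibitors were not called. *Cdkn2c* (p18) was at 25.5, 17.7, 23 and 20.0 CPM in Tim-4+ and at 31.3, 24.4, 27.4 and 37.7 CPM in Tim-4- TAMs. It had the lower value in Tim-4+ TAMs in each pair, opposite to the 4 called inhibitors (log2 ratio -0.48, SE 0.14, adjusted p = 0.0515). *Cdkn1b* (p27) was at 0.06 (adjusted p = 0.809) and *Cdkn2d* (p19Ink4d) at 0.05 (adjusted p = 0.841).

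The D cyclins, which link growth signals to the cycle, differed in sign. *Ccnd3* was at 169, 220, 96.3 and 117 CPM in Tim-4+ and at 107, 95.7, 77.3 and 91.2 CPM in Tim-4- TAMs. Each pair was higher in Tim-4+ TAMs (log2 ratio 0.63, SE 0.16, adjusted p = 0.0338). With total count scaling it was 0.28, which was not past the threshold (adjusted p = 0.189). *Ccnd2* was at 7.79, 37.7, 12.9 and 8.36 CPM in Tim-4+ and at 21.0, 126, 21.5 and 44.6 CPM in Tim-4- TAMs. Both libraries of pair 784 were the highest of their subset, and within each pair the Tim-4- library was higher (log2 ratio -1.58, SE 0.26, adjusted p = 0.0133). *Ccnd1* was at 0.30 (adjusted p = 0.0933). *E2f2*, another activating E2F factor, was at 18.0, 12.9, 22.7 and 5.66 CPM in Tim-4+ and at 32.6, 25.4, 35.6 and 17.2 CPM in Tim-4- TAMs. It was lower in Tim-4+ TAMs in every pair (log2 ratio -1.02, SE 0.17, adjusted p = 0.0108). Without pair 784 none of the 28 regulators was called. Without pair 779 there were 3 higher and 2 lower, without pair 793 there were 3 and 1, and without the replicate number in the fit there were 1 and 0.

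**Figure D5:**
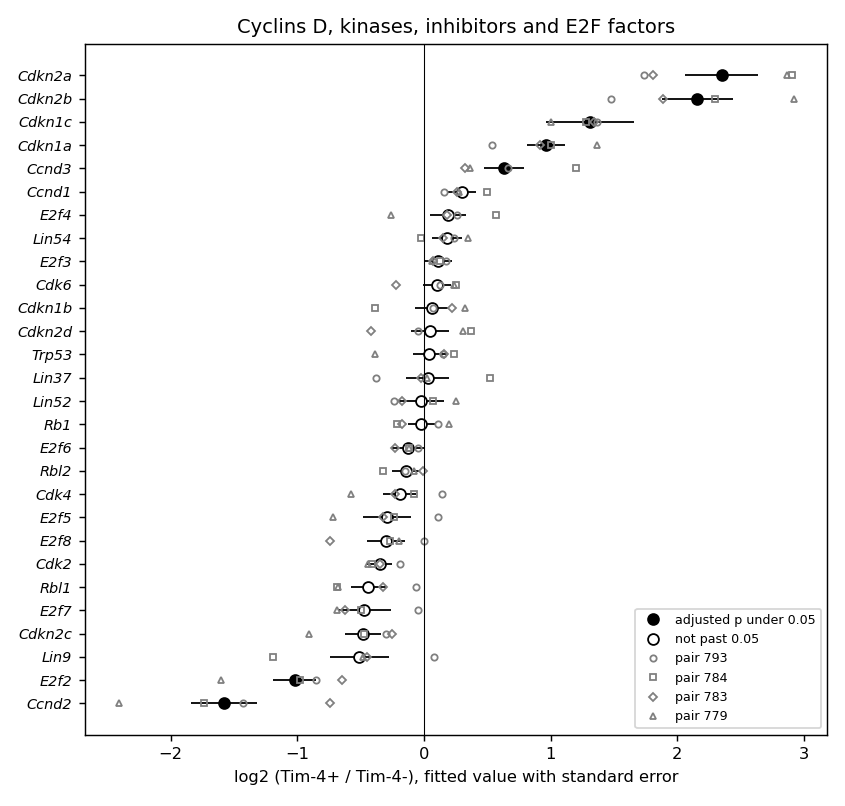
Log2 ratio of Tim-4+ over Tim-4- TAMs on the x axis for 28 cell cycle regulators, with fitted values and standard errors as circles (filled where the adjusted p was under 0.05, 7 genes) and the ratio within each pair as grey symbols. Of the 7 inhibitor genes, *Cdkn2a*, *Cdkn2b*, *Cdkn1c* and *Cdkn1a* lie at 0.96 to 2.35, *Cdkn1b* and *Cdkn2d* near 0 and *Cdkn2c* at -0.48, while *Ccnd2* and *E2f2* lie at -1.58 and -1.02.

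Of 10 genes that control macrophage growth, 4 were higher in Tim-4+ TAMs and 1 was lower, beside 8.97% and 8.43% of all genes. *Bhlhe40*, a transcription factor needed for the proliferation of peritoneal macrophages, was at 1643.2, 958, 706 and 1632.2 CPM in Tim-4+ and at 1083.5, 458, 362 and 644 CPM in Tim-4- TAMs (log2 ratio 0.99, SE 0.16, adjusted p = 0.0104). Each pair was higher in Tim-4+ TAMs, and the 2 subsets overlapped. *Gata6*, the factor of resident peritoneal macrophages, was at 148, 161, 67.3 and 153 CPM in Tim-4+ and at 78.3, 86.9, 41.9 and 119 CPM in Tim-4- TAMs (log2 ratio 0.71, SE 0.12, adjusted p = 0.0122). Both libraries of pair 783 were the lowest of their subset. *Klf2* (0.92, adjusted p = 0.0285) and *Klf4* (0.76, adjusted p = 0.0196) were higher too. *Maf*, a factor that restrains macrophage self-renewal, was lower (-0.70, adjusted p = 0.0460). *Csf1r*, the receptor of the macrophage growth factor CSF1, was at 0.25 (adjusted p = 0.353) and *Myc* at 0.21 (adjusted p = 0.365). Without pair 784, or without the replicate number in the fit, none of the 10 was called. Without pair 779 there were 2 higher and 0 lower, and without pair 793 there were 4 and 0.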

How the data were processed

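TAM RNA was depleted of ribosomal RNA, made into stranded libraries and sequenced with paired ends on 2 lanes. For each gene and each of 16 lanes the authors deposited raw counts of reads, not normalized. The submitters' notes name FastQC 0.11.3, TopHat2 2.0.13, Cufflinks, Cuffdiff 2.2.1 and GRCm38, while the methods give hg19 as reference. The read counter, and whether it used strand, are not given in the sources used here. Counts of antisense and overlapping genes are therefore uncertain.

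Lanes were summed to 8 libraries. Lane 1 of the Tim-4- library of pair 793 is listed by symbol and was joined by row order, with 96.8% of comparable symbols matching and all 46 of the genes described. In the 15 lanes that list them, reads on no gene (4.59% to 6.83% of a lane's listed reads) stayed out of the totals. Symbols and coordinates are from GENCODE M21 on GRCm38 (98.6% of identifiers found).

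The 16861 genes with 10 or more counts in 4 or more libraries were tested with edgeR 4.0.16 (R 4.3.3), in a robust quasi-likelihood fit with TMM scaling and a block for the pair, and p-values were adjusted by Benjamini-Hochberg. A call is an adjusted p under 0.05. Pairs were taken from the label numbers. With subset means removed, log2 CPM of same-numbered libraries correlated across genes at 0.471, 0.498, 0.408 and 0.277. CPM values are TMM-scaled. A level of 3 counts equals 0.0382 to 0.063 CPM on this scale, which covers counting error only.

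The 46 genes and the other lists were chosen with earlier results of these data known. Text names all 46 genes, Timd4, Msln and Krt19, the called regulators and growth control genes, and the 5 called genes of largest change, of at least 1 CPM, in each further list, of which 1 is not reported here. Ccnd1, the uncalled inhibitors, Csf1r, Myc, Kif11, Nek2 and single marker genes were named after their values were seen. Alternatives were no block, DESeq2 size factors, total counts, no filter, at least 50 counts, lane 2 alone, DESeq2 1.42.0 and each pair left out.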

Additional observations from a re-analysis of the deposited data

Results flagged for a closer look

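A library was picked out where its gap to the next library of the same subset was too large a part of their range by Dixon's test at the 95% level. Chance alone picks out about 1 in 20 groups. Of 144 groups tested, 10 were picked out, beside 7.2 expected by chance, and 6 of them are among the 46 genes.

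Among S phase genes, the Tim-4+ library of pair 793 stood above the other Tim-4+ libraries in Mcm3 (91.9 CPM, the others 56.4 to 61.6), Mcm5 (80.5 CPM, the others 46 to 50.9) and Ccne1 (4.37 CPM, the others 2.39 to 2.69). The Tim-4+ library of pair 784 stood below the others in E2f1 (16.4 CPM, the others 32.9 to 35.2). Among G2/M genes, the Tim-4- library of pair 784 stood above the other Tim-4- libraries in Cenpe (37.0 CPM, the others 24.9 to 26.9) and Tpx2 (43.1 CPM, the others 35.1 to 36.1).

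Outside the 46 genes, Ccnd2 was high (37.7 CPM, the others 7.79 to 12.9) in the Tim-4+ library of pair 784. Ncapg2 was high in the Tim-4- library of pair 783 (35.9 CPM, the others 28.5 to 29.3), and Cdkn2b in the Tim-4- library of pair 793 (3.49 CPM, the others 1.15 to 1.49). Gata6 was low in the Tim-4+ library of pair 783 (67.3 CPM, the others 148 to 161).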

How the results depend on the processing

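The medians of both phases stayed below 0 in all 11 alternatives. With each pair left out in turn they ranged from -0.84 to -0.54 for S phase and from -0.65 to -0.36 for G2/M, and Nusap1 (-0.31 to 0.05, above 0 without pairs 779 and 783) and Ube2c (-0.40 to 0.00, above 0 without pair 779) turned sign. Over the same 4 fits, the S phase genes called lower numbered 0 to 13, the G2/M genes 0 to 6, further replication genes 0 to 20, further mitosis genes 0 to 11, regulators 0 to 4 higher and 0 to 3 lower, growth control genes 0 to 4 higher and 0 to 1 lower, and all genes 91 to 1608 higher and 67 to 1975 lower. Without pair 784 every one of the 24 other named genes lost its call as well.

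Without the replicate block, calls fell to 1 S phase gene, 0 G2/M genes, 0 further replication genes, 0 further mitosis genes, 1 regulator higher and 0 lower, 0 growth control genes in either direction, and 147 genes higher and 85 lower over all. With total counts per library, 21 S phase genes, 20 G2/M genes, 43 further replication genes and 45 further mitosis genes were called lower. With that scaling 3 regulators were higher and 12 lower, 2 growth control genes were higher, and 789 genes were higher and 4903 lower over all. The mean ratios of the sums were then 2.14 (S phase) and 1.83 (G2/M). DESeq2 called 19 S phase genes, 11 G2/M genes, 34 further replication genes and 27 further mitosis genes lower. It called 6 regulators higher and 5 lower, and 2204 genes higher and 2323 lower over all. Without a count filter, and with at least 50 counts, 4 regulators were lower. Without the 2 libraries farthest from the marker's median, r was 0.79 (S phase, Msln), 0.67 (S phase, Krt19), 0.48 (G2/M, Msln) and 0.59 (G2/M, Krt19). The cause of these shifts was not tested.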
